A study of Mus musculus with 6 samples.

Results

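The replication-dependent histone genes supply most of the protein that packs DNA into nucleosomes, and they were followed here in the prefrontal cortex (PFC) of 3 groups of mice. The genes were taken as every row of the count tables whose symbol starts with Hist1h, Hist2h, Hist3h or Hist4h, without names that mark a pseudogene or an opposite-strand transcript. The symbol pattern matched 70 rows, 1 of these was left out by its name, and 69 genes of 54429 rows remained. They comprise 6 genes for the linker histone H1, 20 for H2A, 18 for H2B, 12 for H3 and 13 for H4. The Hist1 cluster on chromosome 13 holds 56 of them, the Hist2 cluster on chromosome 3 holds 10, the Hist3 cluster on chromosome 11 holds 2, and Hist4h4 lies alone on chromosome 6.

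RNA was sequenced from 2 mice in each group, all aged 6 months, on a mixed background of C57BL/6 and C3H. WT mice received vehicle and are called WT below. PS19(P301S) mice carry a transgene for human tau with the P301S mutation under the mouse prion promoter, which is active in neurons across the brain, and those given vehicle are called Tau. Transgenic mice given UNC0642, an inhibitor of the histone methyltransferases EHMT1 and EHMT2, are called UNC0642, and they had a daily injection of 1 mg/kg on 3 days. Ribosomal RNA was removed from total RNA before strand-specific library preparation, so RNA without a poly(A) tail could enter the libraries. The labels call the 2 libraries of a group biological duplicates of bulk tissue, and in bulk tissue fewer cells of a type and less RNA per cell cannot be told apart.

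Replication-dependent histone genes are short, lack introns, and are transcribed mainly during S phase, when new DNA has to be packed. Their mRNAs usually end in a conserved stem-loop in place of a poly(A) tail, and the stem-loop binding protein SLBP holds it through processing, export and translation. The U7 snRNP guides the cut just after the stem-loop, and the mRNA is degraded quickly when DNA synthesis stops. Most neurons of the adult cortex do not divide, and oligodendrocyte progenitors are its main dividing cells. Several histone genes can also give polyadenylated mRNAs that persist in cells that no longer divide.

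The stem-loop is the feature that sets these mRNAs apart, so it was looked for in the annotated transcripts (GENCODE M21, GRCm38) on the sense strand, as the known histone stem-loop of 16 bases with 3 of its bases left free. It was found in 42 of the 69 genes, namely in 4 for H1, 11 for H2A, 10 for H2B, 8 for H3 and 9 for H4. Only 5 other genes of the 55450 searched held it, and 0.0848% of all genes did. The letters took 5 forms, and 1 called histone gene for each is shown in 26 bases, with the stem-loop in capitals:
Hist1h2bm: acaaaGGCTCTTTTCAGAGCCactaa
Hist1h2bb: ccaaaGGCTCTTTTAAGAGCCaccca
Hist2h2ac: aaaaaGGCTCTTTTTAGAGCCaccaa
Hist1h4n: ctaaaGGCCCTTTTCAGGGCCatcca
Hist1h4i: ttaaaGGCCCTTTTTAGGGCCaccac
The form of Hist1h2bm occurred in 26 of the 42 genes, that of Hist1h4n in 7, that of Hist1h2bb in 6, that of Hist1h4i in 2 and that of Hist2h2ac in 1. The other 27 genes gave no match within their annotated transcript, among them Hist1h1b and Hist1h3i, and some annotated transcripts end before the place where a stem-loop would lie.

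Histone promoters share short elements, and 4 of them were looked for on both strands in the 250 bases before the RefSeq start of transcription (GRCm38.p6), where 62 of the 69 genes had a window. A gene was counted if any of its windows held the element, and Hist1h2be had 2 windows. The CCAAT box, which NF-Y binds, lay before 51 of the 62 genes, against 33.8% of all 32851 promoter windows. It was present for 6 of 6 H1 genes, 18 of 18 H2A genes, 16 of 16 H2B genes and 8 of 10 H3 genes, but for 3 of 12 H4 genes. The octamer ATTTGCAT, which OCT1 binds, lay before 7 of 18 H2A and 7 of 16 H2B genes, against 1.6% of all windows. It lay in no H1, H3 or H4 window. The letters AAACACA of the H1 box lay before 5 of 6 H1 genes and in 6.25% of all windows. The TATA letters TATAAA lay before 29 of the 62 genes and in 12.4% of all windows. These matches describe letters only. Windows of neighbouring H2A and H2B genes on opposite strands can overlap, as for Hist1h2ae with Hist1h2bg and Hist1h2ag with Hist1h2bj. A site in the overlap was counted for each gene, so the H2A and H2B counts are not of separate sites. Below, 4 windows are shown on the strand of their gene, 1 for an H1 gene, 2 for H2B genes called in both main comparisons and 1 for an H4 gene without a CCAAT box. Capitals mark the CCAAT box in either direction, the TATA letters, the octamer and the H1 box.
Hist1h1b, chr13:21780626-21780875, minus strand: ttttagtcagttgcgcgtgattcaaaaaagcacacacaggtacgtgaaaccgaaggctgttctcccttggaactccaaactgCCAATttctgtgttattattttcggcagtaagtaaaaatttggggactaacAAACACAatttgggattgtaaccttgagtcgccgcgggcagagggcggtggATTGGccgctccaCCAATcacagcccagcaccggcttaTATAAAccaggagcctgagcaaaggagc
Hist1h2bm, chr13:21721794-21722043, plus strand: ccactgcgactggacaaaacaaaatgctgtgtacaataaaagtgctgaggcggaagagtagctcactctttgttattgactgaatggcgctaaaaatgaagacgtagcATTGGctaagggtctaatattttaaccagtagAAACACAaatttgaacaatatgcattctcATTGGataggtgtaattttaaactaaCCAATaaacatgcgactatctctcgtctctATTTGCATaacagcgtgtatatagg
Hist1h2bb, chr13:23746484-23746733, plus strand: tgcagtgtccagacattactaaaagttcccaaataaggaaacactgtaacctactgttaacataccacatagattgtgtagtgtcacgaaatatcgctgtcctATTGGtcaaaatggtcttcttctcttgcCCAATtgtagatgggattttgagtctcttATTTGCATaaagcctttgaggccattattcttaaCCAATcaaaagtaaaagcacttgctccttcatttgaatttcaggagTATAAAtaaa
Hist1h4n, chr13:21832198-21832447, minus strand: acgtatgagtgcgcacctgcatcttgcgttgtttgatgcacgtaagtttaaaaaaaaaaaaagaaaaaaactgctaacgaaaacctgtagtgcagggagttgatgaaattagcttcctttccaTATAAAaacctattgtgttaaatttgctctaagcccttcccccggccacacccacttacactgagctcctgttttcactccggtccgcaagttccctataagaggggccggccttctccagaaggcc

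Counts summed to between 17005664 and 28972176 per library, and the histone genes took 7117 to 13077 of them, which is 0.0387% to 0.0468%. Xist RNA marks the female X, and it was high in the library labelled WT replicate 2 and in both Tau libraries, whereas the Y-linked gene Ddx3y was high in the library labelled WT replicate 1 and in both UNC0642 libraries. Treatment and sex therefore coincide in the comparison of UNC0642 with Tau and cannot be told apart there. Prnp, whose promoter drives the transgene, stood at 1708 CPM (counts scaled to library size) in the library labelled WT replicate 1, at 885 CPM in WT replicate 2, and at 1452 to 1695 CPM in the transgenic libraries. The library labelled WT replicate 1 thus had the Prnp level of transgenic mice, and values against WT that change much without it are given both ways below. Without it only WT replicate 2 stands for WT, so the spread between WT mice is not measured. Tau against WT then compares female libraries only, whereas UNC0642 against WT compares a female library with male ones. Group and sex cannot be told apart in that fit either.

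Histone genes are near copies of each other, and this limits which of them can be counted. Of the 69 genes, 59 had a count in at least 1 library and 49 had enough counts to be tested, 5 for H1, 9 for H2A, 14 for H2B, 9 for H3 and 12 for H4. The share of a gene's 50-base stretches that occur in no other annotated gene had a median of 55.9% in the 49 tested genes, 10.8% in the 10 genes with 1 to 32 counts in all, and 3.25% in the 10 genes without any count. In 5 of those 10, namely Hist2h2aa1, Hist2h2aa2, Hist2h3b, Hist2h3c1 and Hist2h2bb, no 50-base stretch was unique. How reads that match several copies were counted is not given in the sources used here, so the values of single copies are uncertain where the unique share is low.

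The genes without counts also include 3 that are known for expression in testis and that do have sequence of their own. Hist1h1t, the testis linker histone, had 0 counts in all 6 libraries with 100% of its 50-base stretches unique. Hist1h2ba and Hist1h2aa, the testis forms of H2B and H2A, had 0 counts with 61.8% and 76.2% unique. A count of 0 allows up to 3 counts, which is 0.104 to 0.176 CPM depending on the library, and this limit covers counting error only. H2A was the type measured least completely, since 11 of its 20 genes were not tested.

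**Figure D1:**
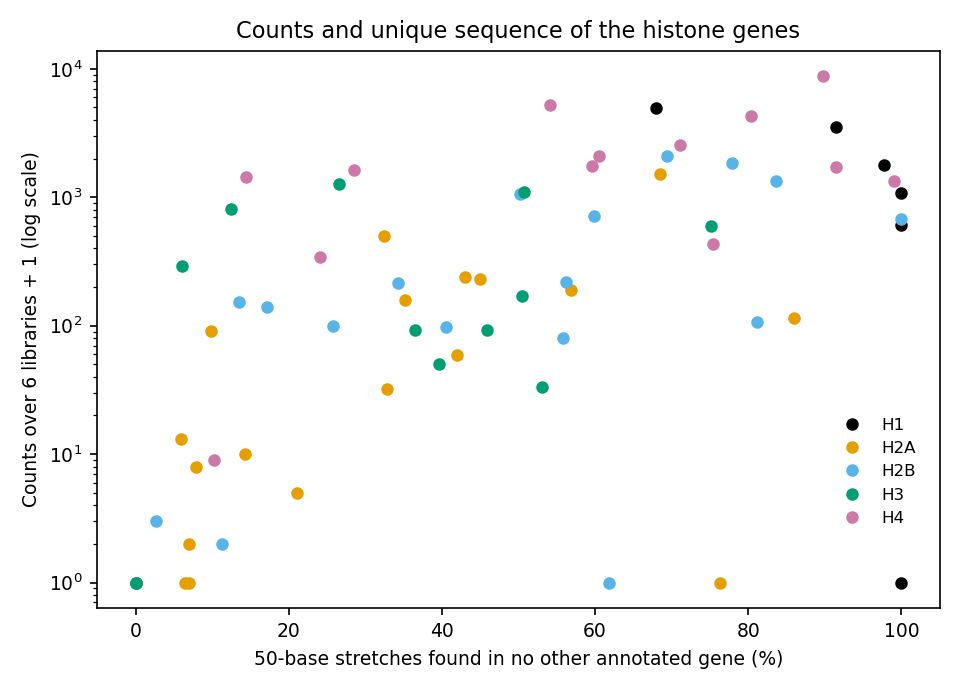
Each point is 1 of the 69 histone genes, with the percentage of its 50-base stretches found in no other annotated gene on the x axis and its counts summed over 6 libraries, plus 1, on a log y axis, coloured by histone type. The genes at the lower left have little sequence of their own and few or no counts, whereas Hist1h1t, Hist1h2aa and Hist1h2ba sit to the right with no count.

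The order of the types was the same in all 6 libraries when levels were taken per kilobase of exon. Summed over its genes and after scaling by TMM, H4 reached 293 to 390 CPM per kilobase, H2B 68.4 to 88.5, H1 47.8 to 58.1, H3 39.9 to 51.8 and H2A 23.3 to 35.0. H4 was thus the highest type and its range lay far from the others, while the ranges of H1 and H3 overlapped between libraries. These levels depend on annotated exon lengths, and the median unique share differed by type, from 26.8% for H2A to 98.9% for H1. The H4 genes encode 1 and the same core histone protein.

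Among single genes, Hist1h4h had the highest mean level, 82.2 CPM per kilobase over the 6 libraries, followed by Hist1h4d with 56.6. The highest of the other types were Hist3h2ba with 21.7 for H2B, Hist1h1e with 19.0 and Hist1h1c with 16.2 for H1, Hist1h3i with 14.6 for H3 and Hist1h2al with 10.6 for H2A. Hist1h2al is annotated as a processed pseudogene, and 65.5% of its 50-base stretches also occur in Gm20632. The next H2A gene, Hist3h2a, had 5.17 CPM per kilobase and shares annotated exon with Trim17 on the same strand. At the low end, Hist1h2ac had 0.335 CPM per kilobase, and the levels of the 49 tested genes therefore spread over more than 2 orders of magnitude. The annotated transcript of Hist1h2ac has 2482 bases, 2010 of them after the stem-loop, so its low level per kilobase depends on that annotation.

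Whether the tau transgene came with a change in histone mRNA was asked by comparing Tau with WT. Of the tested histone genes 8 passed the rule for a higher level in Tau and none passed it for a lower level. At an unadjusted p-value under 0.05 with a fold change of at least 1.2, 8 of 49 were higher in Tau (16.3%), against 3.72% of the 20409 genes tested, and 0 were lower, against 6.1%. The 8 were Hist1h1b, the H2B genes Hist1h2bb, Hist1h2bg, Hist1h2bj and Hist1h2bm, the H3 gene Hist1h3i and the H4 genes Hist1h4i and Hist1h4n. After Benjamini-Hochberg adjustment over all genes, neither edgeR nor limma-voom left a gene with an adjusted p-value under 0.05 among the 49, although 8 had an unadjusted p-value under 0.05 in each. Over all genes edgeR gave 0.157% at this adjusted threshold. DESeq2 called 6 higher and 0 lower, and its adjusted p-value was under 0.05 for 1 gene, Hist1h1b, with 0.0401.

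The shift was spread over many genes and was small in most. The median log2 fold change of the 49 genes was 0.17, while that of all genes tested was -0.00011, and 37 were above 0. Scaling by library size alone put the median of all genes at -0.07 and that of the histone genes at 0.10, with 31 above 0 and 6 called. Without the library labelled WT replicate 1, 10 of 50 tested histone genes were called higher, against 4.38% of all genes in that fit, and the median was 0.30. That fit rests on WT replicate 2, whose histone sum of 381 CPM was the lowest of all libraries. Both Tau libraries lay above both WT libraries for 21 of the 49 genes and below for 2, and the same held for 21.9% and 21.3% of all genes. WT replicate 2 and Tau replicate 1 each decided part of the count, which was 3 without either of them.

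The H2B genes had the highest median of the 5 types. The median log2 fold change was 0.49 for H2B, 0.17 for H4, 0.13 for H1, 0.13 for H3 and 0.04 for H2A. Of the 14 tested H2B genes 4 were called, and for 9 both Tau libraries lay above both WT libraries. H2B genes share sequence too, with 13.6% unique for Hist1h2bn and 17.2% for Hist1h2bl, so their values are not independent. For H4, 12 of 12 genes were above 0 under TMM and 10 of 12 under library size alone, with log2 fold changes from 0.01 to 0.50. Several of them share sequence, with 28.5% unique for Hist1h4k and 14.4% for Hist1h4n, so their signs are not independent. Hist1h4d, Hist1h4k and Hist4h4 had 0.14, 0.14 and 0.28, or 0.30, 0.46 and 0.40 without the library labelled WT replicate 1. Hist1h4n went from 0.50 to 0.38. Without the library labelled WT replicate 1 the medians were 0.37 for H2B, 0.31 for H4, 0.18 for H1, 0.31 for H3 and 0.25 for H2A, so the types lay closer together. Without WT replicate 2 the H2A median was -0.11 and that of H4 was 0.07, with 8 of 12 H4 genes above 0. No difference between types was tested.

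**Figure D2:**
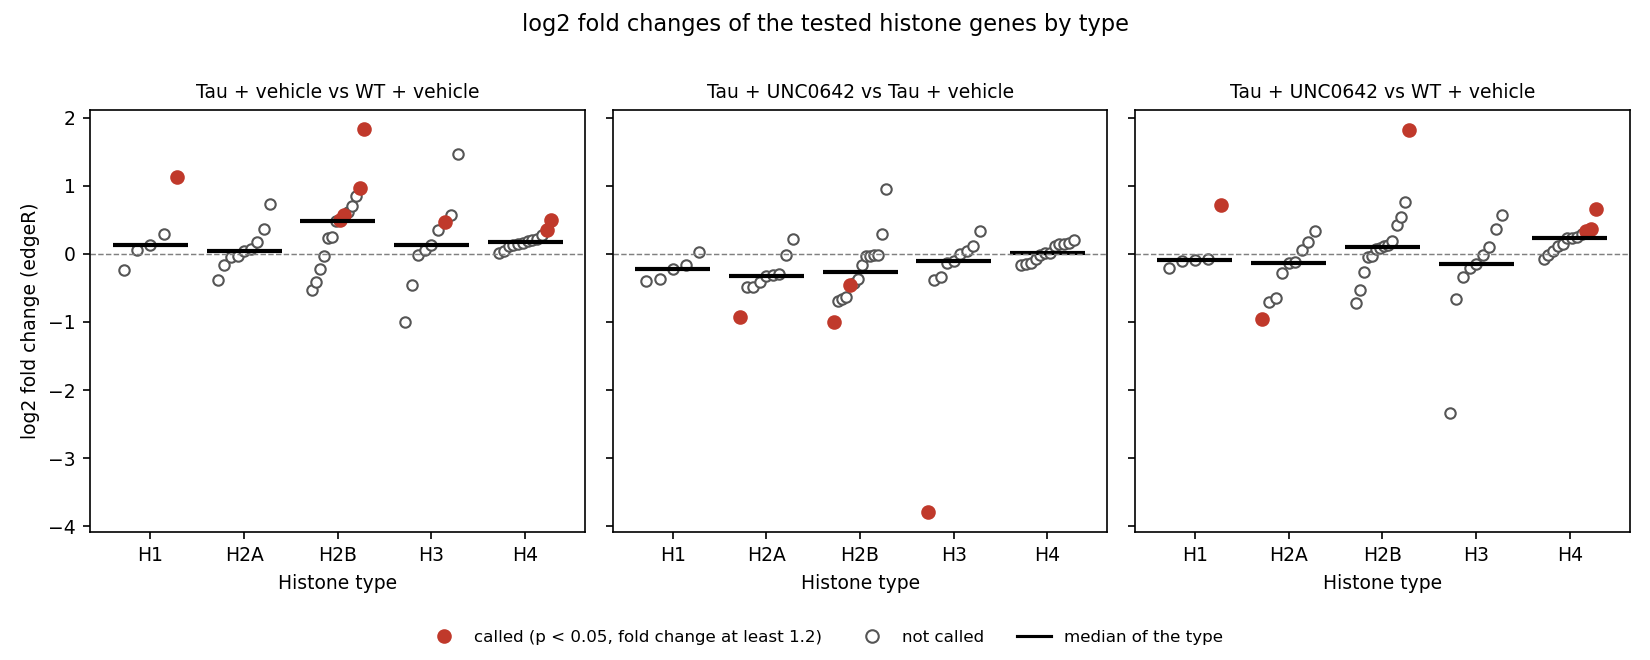
Each point is 1 tested histone gene, placed by histone type on the x axis and by its edgeR log2 fold change on the y axis, in a panel for each comparison. Red points passed p under 0.05 with a fold change of at least 1.2, and black bars are type medians. In Tau against WT the H2B median is 0.49 and 8 genes are red, in UNC0642 against Tau the H2B median is -0.27 and 4 genes are red, and in UNC0642 against WT 6 genes are red.

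Hist1h1b, which encodes the linker histone H1.5 that binds DNA between nucleosomes, had the largest change among genes of more than 2 CPM. Its level was 2.56 and 3.04 CPM in WT, 6.14 and 6.06 CPM in Tau, and 4.49 and 4.76 CPM in UNC0642. Both Tau libraries were about equal and clearly above WT, and the UNC0642 libraries lay between the groups without overlap. Its log2 fold change was 1.12 ± 0.22 (SE) in Tau against WT, with an edgeR adjusted p-value of 0.123, and 1.00 ± 0.27 without the library labelled WT replicate 1. The gene is 1 exon at chr13:21779883-21780625 on the minus strand, and no 50-base stretch of it occurs in another annotated gene.

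The other H1 genes did not pass the test in this comparison. Hist1h1e and Hist1h1c, which encode H1.4 and H1.2 and are the main linker histones here by level, had log2 fold changes of 0.06 ± 0.10 and -0.24 ± 0.19, which were 0.09 ± 0.11 and 0.07 ± 0.17 without the library labelled WT replicate 1. The sign for Hist1h1c thus rested on that library. Hist1h1e was at 37.8 and 36.2 CPM in WT and at 37.3 and 39.9 CPM in Tau. Hist1h1c was at 33.4 and 22.6 CPM in WT and at 27.0 and 20.1 CPM in Tau, so the spread within each group was as wide as the difference between them.

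The 4 called H2B genes covered a wide range of levels. H2B pairs with H2A in the dimers that flank the H3 and H4 core of a nucleosome. Hist1h2bm, at chr13:21722044-21722567 on the plus strand, had 1.26 and 1.17 CPM in WT, 2.46 and 2.29 CPM in Tau, and 0.828 and 1.498 CPM in UNC0642, a log2 fold change of 0.97 ± 0.37 in Tau against WT (adjusted p-value 0.350) that was 1.02 ± 0.48 and not called without the library labelled WT replicate 1. It stands in the study's own list of genes that rose in Tau and fell with UNC0642, which was chosen on these samples, so its direction is not independent evidence. Of the 50-base stretches of Hist1h2bm 56.2% are unique and 31.4% also occur in Hist1h2bp.

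Hist1h2bb, at chr13:23746734-23747241 on the plus strand, had 4.72 and 4.17 CPM in WT, 6.50 and 6.75 CPM in Tau, and 4.67 and 4.93 CPM in UNC0642. Of its 50-base stretches 59.9% are unique and 40.1% also occur in Hist1h2bk. Both Tau libraries stood above the other 4, and the log2 fold change against WT was 0.57 ± 0.20 (adjusted p-value 0.318). Hist1h2bg has 50.3% unique and shares 45.0% with Hist1h2bc, so reads of other H2B genes may enter the values of both genes. Hist1h2bg showed a like order, with 7.09 and 6.12 CPM in WT, 9.47 and 9.21 CPM in Tau, and 6.62 and 7.75 CPM in UNC0642. Its log2 fold change was 0.50 ± 0.18 (adjusted p-value 0.321). Without the library labelled WT replicate 1 these values were 0.66 ± 0.25 and 0.60 ± 0.21.

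Hist1h2bj was the rarest of the called H2B genes and rose by the largest factor. It had 0.236 and 0.312 CPM in WT, 1.00 and 0.972 CPM in Tau, and 1.18 and 0.793 CPM in UNC0642. Its WT counts were 6 and 8. Only 40.6% of its 50-base stretches are unique and 59.4% also occur in Hist1h2bq, so reads of other H2B genes may enter these values. The transgenic libraries of both treatments stood above WT, and the log2 fold change in Tau was 1.83 ± 0.53 (adjusted p-value 0.268), or 1.64 ± 0.70 without the library labelled WT replicate 1. The highest H2B gene per kilobase, Hist3h2ba, was not called: it had 16.7 and 13.1 CPM in WT and 13.1 and 12.2 CPM in Tau, with a log2 fold change of -0.23 ± 0.17, or -0.05 ± 0.19 without that library.

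Hist1h3i was the H3 gene called, and H3 with H4 forms the tetramer at the centre of the nucleosome. It had 5.16 and 4.68 CPM in WT, 6.79 and 6.86 CPM in Tau, and 6.39 and 6.26 CPM in UNC0642, with a log2 fold change of 0.47 ± 0.19 in Tau against WT (adjusted p-value 0.363) and of 0.54 ± 0.23 without the library labelled WT replicate 1. Only 12.4% of its 50-base stretches are unique and 79.3% also occur in Hist1h3h, so reads of other H3 genes may enter this value.

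Of the H4 genes, Hist1h4n had 7.40 and 8.82 CPM in WT, 12.04 and 10.9 CPM in Tau, and 12.7 and 12.9 CPM in UNC0642. Hist1h4i had 17.1 and 14.5 CPM in WT, 21.2 and 19.0 CPM in Tau, and 20.0 and 20.7 CPM in UNC0642. In both genes all 4 transgenic libraries stood above both WT libraries. Their log2 fold changes in Tau against WT were 0.50 ± 0.15 and 0.35 ± 0.13, with adjusted p-values of 0.288 and 0.340, and without the library labelled WT replicate 1 they were 0.38 ± 0.18, which was not called, and 0.47 ± 0.15. The unique share is 14.4% for Hist1h4n, which shares 83.2% of its stretches with Hist1h4m, and 71.1% for Hist1h4i.

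**Figure D3:**
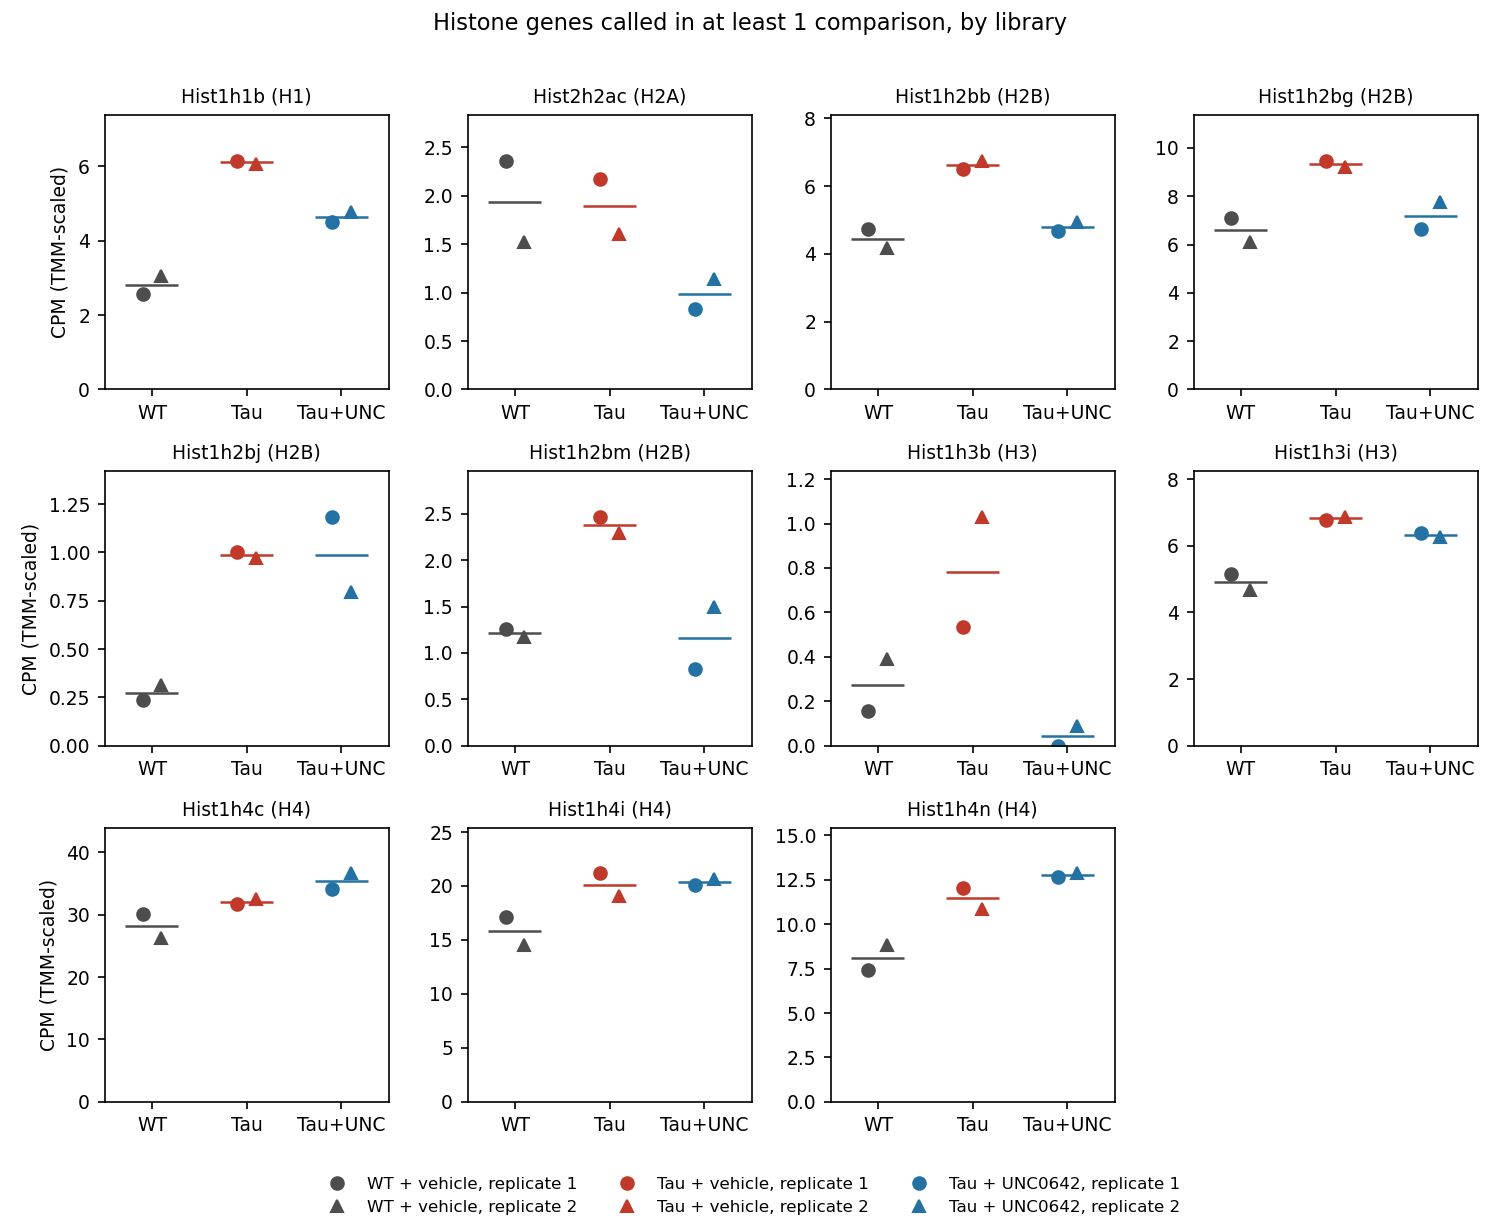
The 11 histone genes called in at least 1 comparison are shown in a panel each, with TMM-scaled CPM on a y axis that starts at 0, circles for replicate 1, triangles for replicate 2 and bars for group means. Hist1h1b rises from 2.56 and 3.04 CPM in WT to 6.14 and 6.06 CPM in Tau, and Hist1h3b falls from 0.536 and 1.03 CPM in Tau to 0 and 0.0881 CPM in UNC0642.

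The summed levels moved less than the single genes. Over all 69 genes the sum was 452 and 381 CPM in WT, 467 and 458 CPM in Tau, and 421 and 463 CPM in UNC0642. The Tau libraries were close to each other and above both WT libraries, while the WT libraries differed by more than the groups did. The ratio of Tau to WT means was 1.14 for H2B, 1.14 for H3 and 1.14 for H4, but 1.04 for H1 and 1.02 for H2A. Against WT replicate 2 alone the ratios were 1.25 for H2B, 1.21 for H3, 1.24 for H4, 1.13 for H1 and 1.16 for H2A. With 2 libraries a group no exact test of such a sum can pass, and none was run.

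**Figure D4:**
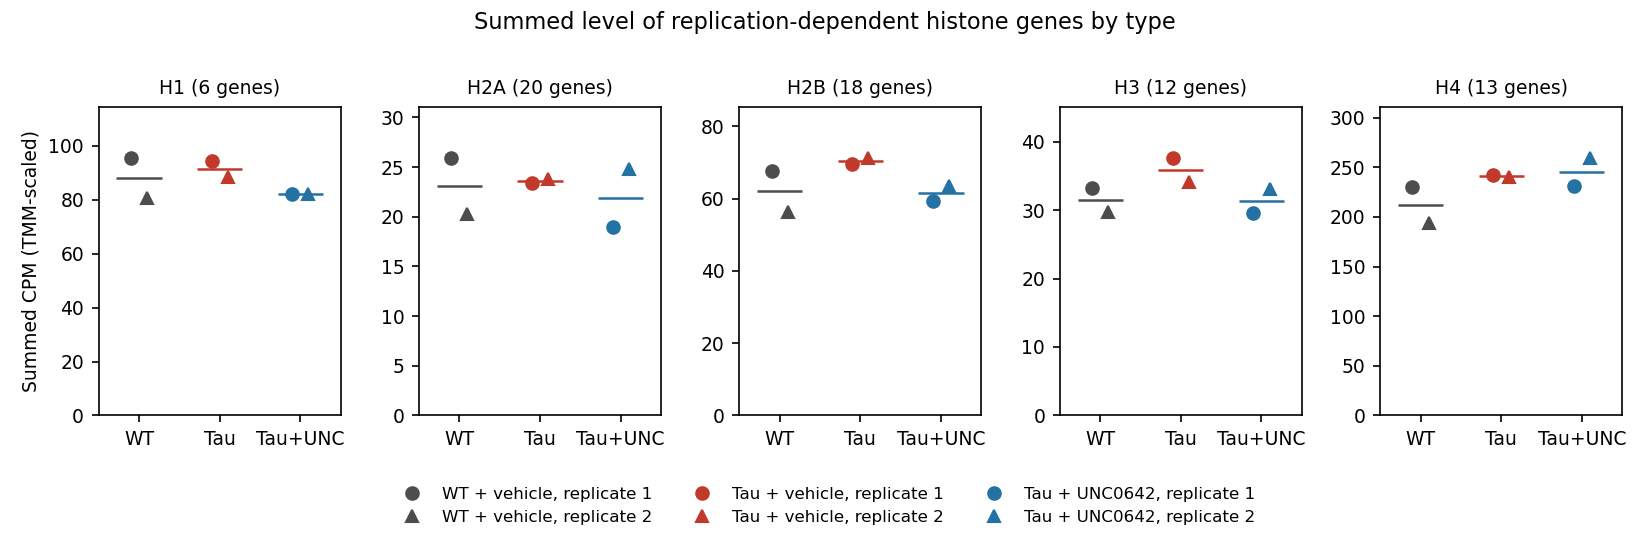
TMM-scaled CPM summed over all genes of a histone type (y axis, from 0) in each library, with circles for replicate 1, triangles for replicate 2 and bars for group means. H4 reaches 242 and 240 CPM in Tau against 230 and 194 CPM in WT, and H2B reaches 69.7 and 71.2 CPM in Tau against 67.7 and 56.3 CPM in WT.

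What differed after EHMT inhibition was asked by comparing UNC0642 with Tau, a comparison that shares the Tau libraries with the one above. Here 0 of 49 histone genes were called higher, against 3.73% of all genes tested, and 4 were called lower (8.16%), against 3.95%. They were the H2B genes Hist1h2bb and Hist1h2bm, the H3 gene Hist1h3b and the H2A gene Hist2h2ac. With edgeR 0 had an adjusted p-value under 0.05, against 0.0196% of all genes, and the smallest was 0.395. DESeq2 called 0 higher and 1 lower, and limma-voom 0 and 3.

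The median log2 fold change of the 49 genes was -0.14, against -0.0023 over all genes, with 14 above 0. Both UNC0642 libraries lay below both Tau libraries for 19 genes and above for 6, which held for 21% and 20.4% of all genes. The type medians were -0.33 for H2A, -0.27 for H2B, -0.23 for H1 and -0.11 for H3, while H4 stood at 0.01 with 7 of 12 genes above 0. The count of lower genes was 1 without Tau replicate 1 and 2 without UNC0642 replicate 1, and the median was -0.05 without UNC0642 replicate 1.

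Hist1h2bm and Hist1h2bb were called in opposite directions in these comparisons, and both share the Tau libraries. Their log2 fold changes in UNC0642 against Tau were -1.01 ± 0.38 and -0.46 ± 0.20, with adjusted p-values of 0.499 and 0.551. Against WT the UNC0642 libraries overlapped the WT range for both genes, with log2 fold changes of -0.04 ± 0.39 and 0.11 ± 0.20, or 0.01 ± 0.49 and 0.20 ± 0.25 without the library labelled WT replicate 1. For the 6 other genes called higher in Tau the UNC0642 values against Tau were not called. They ranged from -0.40 ± 0.22 for Hist1h1b and -0.37 ± 0.18 for Hist1h2bg to 0.15 ± 0.15 for Hist1h4n.

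Hist1h3b, a gene of 1 exon at chr13:23752267-23752886 on the plus strand, was close to the detection limit in the UNC0642 libraries. Its counts were 4 and 10 in WT, 15 and 18 in Tau, and 0 and 2 in UNC0642. Both UNC0642 libraries lay below the other 4. Of its 50-base stretches 39.6% are unique and 46.6% also occur in Hist1h3h. The ratio of UNC0642 to Tau over the summed counts was 0.0713, with an exact 95% interval of 0.00829 to 0.279 that covers counting error only. In each library genes at 2 counts outnumbered genes at 1 count by 2.10 to 2.47 times, so a count need not be a separate fragment and this interval may be too narrow. In edgeR the log2 fold change was -3.80 ± 1.02 (adjusted p-value 0.395), and this size depends on how a count of 0 is treated.

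Hist2h2ac, an H2A gene of the Hist2 cluster at chr3:96220361-96220880 on the minus strand, was lower in UNC0642 than in both other groups. It had 2.36 and 1.52 CPM in WT, 2.18 and 1.60 CPM in Tau, and 0.828 and 1.15 CPM in UNC0642. WT and Tau overlapped, and both UNC0642 libraries lay below them. Of its 50-base stretches 45.0% are unique and 28.9% also occur in Gm20632. The log2 fold changes were -0.93 ± 0.40 against Tau and -0.96 ± 0.40 against WT, with adjusted p-values of 0.549 and 0.377. Against WT without the library labelled WT replicate 1 the value was -0.61 ± 0.48 and was not called.

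Compared with WT, UNC0642 libraries had 5 of 49 histone genes called higher (10.2%), against 3.77% of all genes, and 1 lower (2.04%), against 5.69%. The 5 were Hist1h1b, Hist1h2bj, Hist1h4c, Hist1h4i and Hist1h4n, and the lower gene was Hist2h2ac. With edgeR 0 had an adjusted p-value under 0.05, against 0.216% of all genes, the smallest being 0.148, and 6 had an unadjusted p-value under 0.05. DESeq2 and limma-voom gave 0 adjusted calls as well, with 5 genes higher and 0 lower in each at the unadjusted rule. Both UNC0642 libraries lay above both WT libraries for 13 genes and below for 9, which held for 22.1% and 22.3% of all genes. The median over the 49 genes was 0.05, against -0.01 over all genes, and its sign depended on single libraries, from -0.11 without UNC0642 replicate 2 to 0.19 without the library labelled WT replicate 1.

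H4 had the highest median against WT after UNC0642. It was 0.23, with 10 of 12 genes above 0 under TMM and 9 of 12 under library size alone, and 3 of the 5 genes called higher encode H4. The medians of the other types were 0.10 for H2B, -0.09 for H1, -0.13 for H2A and -0.15 for H3. Without the library labelled WT replicate 1 the medians were 0.36 for H4, 0.19 for H2B, 0.10 for H1, -0.11 for H2A and -0.06 for H3, so the sign for H1 turned. Hist1h4c had 30.1 and 26.2 CPM in WT, 31.7 and 32.5 CPM in Tau, and 34.1 and 36.7 CPM in UNC0642. Its log2 fold change was 0.33 ± 0.11 in UNC0642 against WT (adjusted p-value 0.279) and 0.19 ± 0.11 in Tau against WT, which was not called, although without the library labelled WT replicate 1 the latter was 0.29 ± 0.12 and was called. Hist1h1b, Hist1h2bj, Hist1h4i and Hist1h4n had values of 0.72 ± 0.23, 1.81 ± 0.54, 0.36 ± 0.13 and 0.65 ± 0.16 against WT in this comparison. All 5 genes were still called without the library labelled WT replicate 1, with values of 0.60, 1.63, 0.43, 0.49 and 0.53 for Hist1h1b, Hist1h2bj, Hist1h4c, Hist1h4i and Hist1h4n. The most abundant H4 genes, Hist1h4h and Hist1h4d, had values of 0.23 ± 0.11 and 0.12 ± 0.12 and were not called, but without that library they were 0.36 ± 0.12 and 0.28 ± 0.12 and were called. With Hist3h2a this made 8 histone genes called higher in that fit, against 4.27% of all genes.

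The place where the annotated transcript ends was compared with these changes, a grouping made after the values were known and therefore not tested. In 13 tested genes the transcript ends within 100 bases after the stem-loop, as an mRNA cut there would. In 19 it runs on for more than 100 bases, and in 17 no stem-loop was found. The median log2 fold change in Tau against WT was 0.50 in the first set, 0.13 in the second and 0.16 in the third, and without the library labelled WT replicate 1 it was 0.51, 0.25 and 0.36. All 4 genes called lower in UNC0642 against Tau belonged to the first set. The medians in that comparison were -0.16, -0.04 and -0.15 in the same order of sets, so the first set and the set without a stem-loop were alike. The first set was also the less abundant, with a median level of 1.56 CPM per gene against 9.86 CPM in the second.

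Genes of S phase were examined beside the histone genes, because histone mRNA normally rises with DNA synthesis. Of 34 tested genes for S phase and proliferation, 4 were called higher in Tau than in WT and 0 lower, against 3.72% and 6.1% of all genes, and 6 were called lower in UNC0642 than in Tau and 0 higher, against 3.95% and 3.73%. Their medians were 0.07 and -0.14. In the fit without the library labelled WT replicate 1, 5 were higher in Tau and 1 lower, with a median of 0.14. The 4 genes called higher, Mki67, Uhrf1, Top2a and Gins2, stand in the same list of the study as Hist1h2bm, so their directions are not independent evidence. Mki67, a marker of cycling cells, had 2.68 and 2.73 CPM in WT, 4.54 and 5.09 CPM in Tau, and 2.60 and 3.13 CPM in UNC0642. Uhrf1, which carries DNA methylation through replication, had 0.354 and 0.312 CPM in WT, 1.21 and 1.37 CPM in Tau, and 0.237 and 0.352 CPM in UNC0642. In both genes the Tau libraries stood above the other 4, as they did for Hist1h2bb and Hist1h2bm.

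Top2a, the topoisomerase that untangles replicated DNA, had 0.787 and 1.48 CPM in WT, 2.29 and 3.89 CPM in Tau, and 1.06 and 1.01 CPM in UNC0642. The log2 fold changes in Tau against WT were 0.83 ± 0.25 for Mki67, 1.42 ± 0.41 for Top2a and 1.93 ± 0.52 for Uhrf1, and in UNC0642 against Tau they were -0.74 ± 0.25, -1.55 ± 0.43 and -2.08 ± 0.54. All of these passed the unadjusted rule. Without the library labelled WT replicate 1 the values for Tau against WT were 0.81, 1.03 and 2.02. The fourth gene called in Tau was Gins2, a subunit of the replicative helicase, with 1.60, and Ccna2 and Mcm6 were among those called lower in UNC0642 against Tau, with -0.97 and -0.52.

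**Figure D5:**
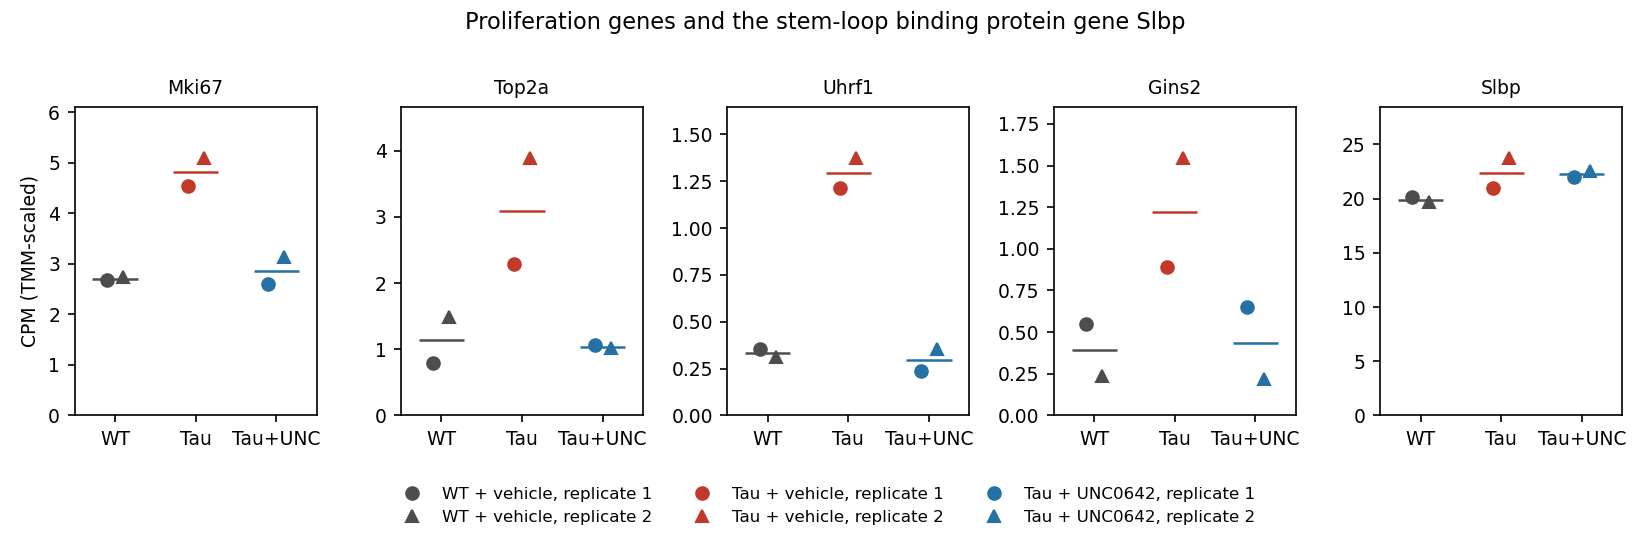
TMM-scaled CPM (y axis, from 0) of 4 proliferation genes and of Slbp in each library, with circles for replicate 1, triangles for replicate 2 and bars for group means. Mki67 reaches 4.54 and 5.09 CPM in Tau against 2.60 to 3.13 CPM in the other libraries, whereas Slbp stays between 19.7 and 23.7 CPM in all 6.

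Genes of the machinery that makes histone mRNA were examined as well. In Tau against WT 3.72% of all genes were called higher and 6.1% lower, and 1 call in lists of this size stays close to those shares. Of 26 tested genes for histone transcription and 3′ processing, 1 was called higher in Tau, Lsm11, a protein of the U7 snRNP, with a log2 fold change of 0.41 that was 0.27 and not called without the library labelled WT replicate 1. Slbp, the stem-loop binding protein, had 20.2 and 19.7 CPM in WT, 21.0 and 23.7 CPM in Tau, and 22.0 and 22.5 CPM in UNC0642, and its log2 fold change in Tau was 0.16 ± 0.11. Npat, the coactivator of histone transcription in the histone locus body, had a value of 0.13 ± 0.10. Neither was called in any comparison. Of 13 genes for histone mRNA decay, 1 was higher in Tau, Eri1, an exonuclease that trims histone mRNA ends, with 0.30, which was 0.32 and not called without that library.

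Of 29 histone chaperones 0 were called higher in Tau and 1 lower, against 3.72% and 6.1% of all genes. The lower gene was Tonsl, which binds newly deposited H4, with a log2 fold change of -0.58. Nap1l2, a nucleosome assembly protein of neurons, was higher in UNC0642 than in WT, with 0.36. The variant histones, most of them made outside S phase from polyadenylated mRNA, gave 0 calls in 12 tested genes in Tau against WT. H2afz was called higher in UNC0642 against Tau with 0.40. The genes for the replacement histone H3.3, H3f3a and H3f3b, were not called, and H3f3b had 123 and 101 CPM in WT, 101 and 109 CPM in Tau, and 101 and 104 CPM in UNC0642. Ehmt1 and Ehmt2, the targets of the drug, were not called in any comparison.

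RNA of another class without a poly(A) tail was followed in the same libraries, because the capture of such RNA can differ between preparations. Of 13 tested short RNAs such as snoRNAs and Y RNAs, 0 were called in either direction in Tau against WT, with a median of -0.07. In UNC0642 against Tau 2 were called lower, Scarna2 and Snord17, against 3.95% of all genes, with a median of -0.15. In UNC0642 against WT 2 were called lower, Rnu12 with -1.13 and Rny3 with -1.01, against 5.69% of all genes. Rny3 was at 18.0 CPM in the library labelled WT replicate 1 and at 49.9 CPM in WT replicate 2. Its value in Tau against WT was -0.48, or -1.05 without the former library. The histone medians were 0.17 in Tau against WT and -0.14 in UNC0642 against Tau. The part of RNA capture in the histone values was not tested.

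Markers of cell types also moved between the groups. The counts of called markers stand against 3.72% of all genes higher and 6.1% lower in Tau against WT. In UNC0642 against Tau 3.95% of all genes were lower. The summed level of 8 markers of oligodendrocyte progenitors was 155 to 161 CPM in WT, 182 to 194 CPM in Tau and 140 to 152 CPM in UNC0642, and the groups did not overlap. The single markers did not all move with the sum. Their median log2 fold change in Tau against WT was 0.24, but Cspg4 had -0.08, or -0.18 without the library labelled WT replicate 1. Sox10 was at 8.74 and 4.88 CPM in WT and at 8.11 and 12.8 CPM in Tau. Of the 8 progenitor markers 1 was called higher in Tau, Gpr17, and 4 lower in UNC0642 against Tau, namely Gpr17, Neu4, Olig1 and Sox10. The sum of 8 markers of mature oligodendrocytes was 1487 to 3020 CPM in WT, 2093 to 5661 CPM in Tau and 2187 to 2334 CPM in UNC0642, with 4 called higher in Tau and Tau replicate 2 far above the rest. Their median log2 fold change in Tau against WT was 0.80, or 1.37 without the library labelled WT replicate 1. Of 8 microglial markers 2 were higher in Tau, C1qa and Tmem119, with sums of 290 to 330 CPM in WT and 357 to 363 CPM in Tau.

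Markers of other cells moved in both directions, and the same shares of all genes, 3.72% higher and 6.1% lower in Tau, apply to their counts. In Tau against WT 5 of 8 endothelial, 2 of 7 meningeal and 2 of 5 erythroid markers were called lower, 1 of 8 astrocyte markers, Gfap, was higher with 0.60, and 0 of 8 neuronal markers were called. Leaving out the library labelled WT replicate 1, the median log2 fold change in Tau was 0.28 for progenitor and 1.37 for mature oligodendrocyte markers. It was 0.17 for microglial, 0.12 for astrocyte, -0.37 for endothelial, -0.65 for meningeal and -0.64 for erythroid markers. The neuronal sum was 9036 to 9110 CPM in WT and 9334 to 9800 CPM in Tau, so the defining markers of cortical neurons were present in all libraries. The part of cell composition in the histone values was not tested.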

How the data were processed

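RNA of 6 PFC libraries was analysed, 2 in each of 3 groups taken from the sample labels. The authors trimmed reads with Cutadapt, aligned them with TopHat2 and counted them per gene with featureCounts on mm10, and deposited the raw counts, with no tool version given in the sources used here. In 2 libraries 26 genes carried dates for names and were joined by position.

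Counts were fitted with edgeR 4.0.16 (R 4.3.3) by the quasi-likelihood test on all 6 libraries, after filterByExpr (minimum count 10, minimum total 15; 20409 genes kept) and TMM scaling (factors 0.966 to 1.04). The biological coefficient of variation was 12.3%. Genes were called at a minimum fold change of 1.2 with p under 0.05, and adjusted p-values are Benjamini-Hochberg values over all genes tested. SE is that of the log2 fold change. Levels are CPM after TMM scaling, except levels averaged per kilobase for single genes, which use CPM per library total. Limits of detection are 3 counts over the library total. The fit was tested on simulated data with 19826 genes, where 91.8% of 195 genes changed by 3-fold were called, as were 858 unchanged genes.

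The histone genes and all lists were chosen with earlier results of these data known. Named genes are all histone genes called in any comparison, the 2 highest per kilobase of each type, Hist1h2bm, up to 3 called genes of each list with the smallest p, and Slbp, Npat, H3f3a, H3f3b, Mki67, Top2a, Ehmt1 and Ehmt2. Further genes were named after their values were seen. The lists cover variant histones, histone transcription and processing, decay, chaperones, S phase, short RNAs without poly(A) and markers of 8 cell types. Unique 50-base stretches, exon lengths and stem-loops were taken from GENCODE M21, and all 69 symbols matched. Alternatives were DESeq2 1.42.0, limma-voom (limma 3.58.1), other scalings, filters and thresholds, fits of 2 groups, a replicate block and fits without each library. Same-numbered libraries come from different mice. Tables and figures were made with Python 3.11.15, pandas 2.3.3, scipy 1.17.1 and matplotlib 3.10.9.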

Additional observations from a re-analysis of the deposited data

How the results depend on the processing

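Limits: each group has 2 mice, no histone gene passed adjustment in edgeR, and the library labelled WT replicate 1 and the sexes are unevenly placed. In Tau against WT the 8 higher genes became 3 at a fold change of at least 1.5 and 0 with adjusted p-values, and 3 to 10 when single libraries were left out. The 0 lower genes became 1 with no filter and 0 to 2 without single libraries. The median of 0.17 ranged from 0.12 to 0.30 without single libraries. In UNC0642 against Tau the 4 lower genes became 1 with the DESeq2 test and 0 with adjusted p-values, and 1 to 5 without single libraries. In UNC0642 against WT the 5 higher genes became 3 at a fold change of at least 1.5 and 0 with adjusted p-values, and 3 to 8 without single libraries. The 1 lower gene became 3 with no filter, 0 with the DESeq2 test, with limma-voom or with adjusted p-values, and 0 to 4 without single libraries. The median of 0.05 ranged from -0.11 to 0.19 without single libraries and was -0.02 with no filter. Fits with fewer libraries have fewer degrees of freedom, and the cause of the other changes was not tested. With a replicate block the 4 lower genes in UNC0642 against Tau became 2, while 8 higher genes in Tau and 5 higher in UNC0642 against WT were called as before in number. The correlations of same-numbered deviations were -0.034, -0.021 and -0.0033, so the numbers do not pair the mice. Over the alternatives run for named histone genes, 721 log2 fold changes kept their side of the threshold, 44 lost and 14 gained a call. Among values called in the main or the alternative fit, 0 reversed. Uncalled values that changed sign, such as that of Hist1h1c, are counted in the 721.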

Other observations

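Some histone genes went against the general direction or stood apart in 1 library, and they are named here after their values were seen. Hist1h3g and Hist1h2ac were the 2 genes for which both Tau libraries lay below both WT libraries. Hist1h3g, an H3 gene, had 1.10 and 0.780 CPM in WT, 0.429 and 0.515 CPM in Tau, and 0.710 and 0.485 CPM in UNC0642, with a log2 fold change of -1.003 ± 0.52 in Tau against WT. Hist1h2ac, an H2A gene, had 1.02 and 1.05 CPM in WT, 0.643 and 0.972 CPM in Tau, and 0.710 and 0.573 CPM in UNC0642. Neither gene was called.

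Hist2h2be, which encodes an H2B variant best known from olfactory neurons, had 8.46 CPM in the library labelled WT replicate 1 and 3.90 to 4.36 CPM in the other 5. No other library reached that level. Hist1h2bp, another H2B gene, had 1.10 CPM in UNC0642 replicate 2 and 0.286 to 0.630 CPM in the other 5 libraries, and its log2 fold change of 0.96 in UNC0642 against Tau was the highest of the 49 tested genes there without being called.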
